A study of Mus musculus with 8 samples.

Results

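The 300 most densely cut of 26620 counted open regions were described in the mouse embryonic tailbud. For each region the count was divided by the library total, which puts it on a scale common to all libraries (CPM), averaged over 8 libraries and divided by the width in kb. The 300 regions of highest density were taken as members, so density and width chose them. The assay was ATAC-seq, where a transposase, Tn5, cuts and tags accessible DNA. Libraries came from tailbuds of embryos at embryonic day 9.5 on the outbred CD-1 background. There were 4 wild-type libraries (WT, genotype WT/WT) and 4 from Sd/Sd embryos, which carry 2 copies of the spontaneous mutation Danforth's short tail. It shortens the tail skeleton. Where material was short a library pooled the tailbuds of 2 mice, and the labels do not mark which ones. They do not give litters either, so a p-value here reflects only how these libraries vary and may be partly technical.

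Open chromatin is cut by Tn5 where nucleosomes are absent or loosely held. Such DNA is typical of active promoters, of enhancers and of sites held by architectural proteins such as CTCF. An active promoter commonly gives a broad hill of cuts around the start of transcription. Counts in a short window can also be high for other reasons, since sequences present in more copies in the animals than in the reference, such as satellite arrays near centromeres, collect reads from every copy. A bulk tailbud library holds notochord, neural, presomitic mesoderm and hindgut cells, and more open cells cannot be told apart from more open chromatin per cell. Positions are on mm9. Placement in genes or annotated repeats was not analysed here.

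Library totals over the counted regions ran from 2873918 in WT replicate 3 to 4180434 in Sd/Sd replicate 4. These totals stand for depth. The mean was 3190020 ± 287338 in WT and 3546690 ± 471283 in Sd/Sd (SD, n = 4 each). The genotypes overlapped in total (two-sided exact permutation p = 0.257). Within the members a library had from 58 to 2709 counts per region, with a median of 532.

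Density of the members ran from 121 to 668 CPM per kb with a median of 144, beside a median of 32.9 over all counted regions. At the lower limit the last 3 members had 121.5 CPM per kb each, and the first 3 regions outside had 121.4, 121.3 and 120.9. The limit is thus a point on a continuous scale and not a gap. The last member, on chromosome 3 from 125230022 to 125230241, is 220 bp wide, while the regions at ranks 298 and 299 are 1263 and 1152 bp wide. The regions at ranks 301, 302 and 303 are 1316, 1264 and 947 bp wide.

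The members fell into distinct widths. Of the 300, 235 were wider than 800 bp, 11 were 501 to 800 bp, 18 were 251 to 500 bp and 36 were at most 250 bp. The class limits were set after the widths were seen. Members of at most 250 bp, called narrow members here, had a median width of 219 bp, and 33 of the 36 were between 219 and 222 bp wide. Over all regions 515 were at most 250 bp wide, so most regions of that width were not members. Widths of 219 to 222 bp were also common outside the members, with 75 of the 108 such regions. Narrow regions filled the top of the ranking, with 17 of the first 20 ranks.

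**Figure D1:**
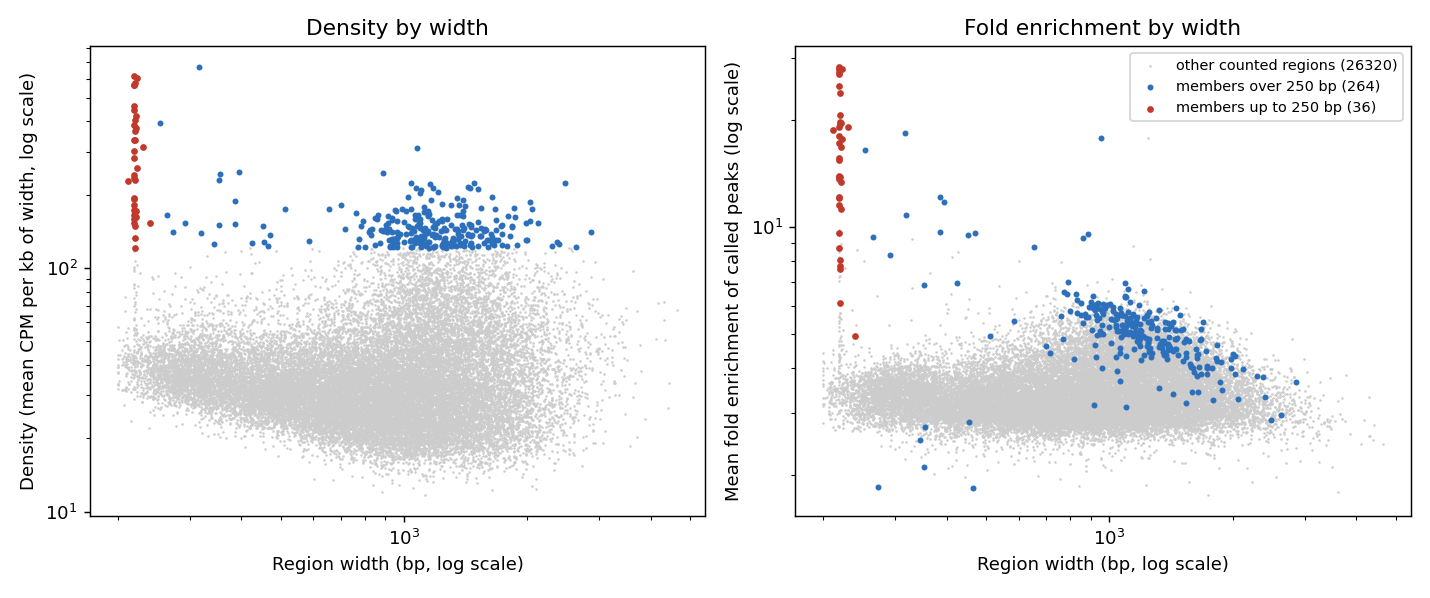
Region width in bp against density in mean CPM per kb (left) and against the mean fold enrichment of the peaks called by the authors (right), all axes logarithmic, 1 point per counted region. The 36 narrow members stand in a column at about 219 bp and reach 616 CPM per kb and a fold enrichment of 28.2, while most of the 264 wider members gather above 800 bp.

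The highest density was 668 CPM per kb, in a region of 316 bp on chromosome 10 from 71759826 to 71760141. WT replicates 1 to 4 received 215, 240, 239 and 178 CPM there. For Sd/Sd replicates 1 to 4 the values were 214, 206, 184 and 212 CPM. The groups overlapped. The nearest other counted region was 334156 bp away.

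Ranks 2 to 10 were all narrow members. Rank 2 was on chromosome 6 from 17177588 to 17177806, at 616 CPM per kb. Its level was 132, 176, 143 and 139 CPM in WT and 118, 149, 127 and 95.7 CPM in Sd/Sd. The 219 bp therefore held between 400 and 530 counts in each library, and WT replicate 2 was the highest and Sd/Sd replicate 4 the lowest.

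Rank 3 was on chromosome 17 from 73687303 to 73687524, with 113, 187, 158 and 133 CPM in WT and 131, 135, 113 and 96.9 in Sd/Sd. The same 2 libraries were at the ends of its range. Without WT replicate 1 its log2 fold change was -0.42 and passed (edgeR adjusted p = 0.0227), against -0.31 and an edgeR adjusted p = 0.802 with all libraries. Rank 4, on chromosome 12 from 48077783 to 48078002, had a density of 575 CPM per kb. Ranks 5 and 6 were on chromosome 2 from 49795922 to 49796140 (565 CPM per kb) and on chromosome 12 from 111712084 to 111712302 (563 CPM per kb).

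The other 4 of the first 10 stood between 405 and 463 CPM per kb. They were on chromosome 9 from 102232986 to 102233204, chromosome 16 from 95954100 to 95954318, chromosome 8 from 62675230 to 62675450 and chromosome 11 from 3998062 to 3998281. In the first of these the level was 139 CPM in WT replicate 2 and 99.5 to 102.3 in the remaining WT libraries.

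Fold enrichment, the authors' own value per peak over the peak caller's background, separated narrow from wide members further. It is made from the same reads as the counts and was not tested. The mean over the libraries with a peak had a median of 16.3 in the narrow members, from 4.95 to 28.2, and a median of 5.08 in the 264 wider members. The median of all regions was 3.34. The highest means were 28.2 at rank 6, 27.9 at rank 3 and 27.8 at rank 2. In single libraries the region at rank 6 ran from 26.3 to 29.2, so its enrichment was nearly the same in all 8. A mean fold enrichment of at least 10 was reached by 36 of the 26620 regions, 35 of them members and 29 of them narrow members.

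Narrow members also had a fixed shape. In 33 of the 36 a peak with exactly the region's start and end was called in 8 of 8 libraries. In the whole table this held for 38 regions, 34 of them members, with the lowest at rank 732. The member beyond 250 bp among them was on chromosome 14 from 109548460 to 109548712, 253 bp wide. Among the 235 members wider than 800 bp it held for 0, and for 202 of these no library had a peak with the region's own bounds. Bounds of a wide member are thus the outline of peaks that differ between libraries, while the bounds of a narrow member recur to the base. It is not stated whether the counts are of Tn5 cuts, reads or read pairs, or whether duplicates or reads that map to several places were kept, and the part of these steps in the narrow members was not tested.

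The narrowest member was 211 bp wide, on chromosome 11 from 115501952 to 115502162. It differed from the rest of the narrow class, since no library had a peak with its exact bounds. Its level was even, at 44.2 to 51.0 CPM in WT and 39.0 to 53.4 in Sd/Sd, and its mean fold enrichment was 18.8.

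Summed over the 36 narrow members, WT replicates 1 to 4 had counts of 8015, 8678, 7330 and 8062. The Sd/Sd sums were 8508, 7585, 7136 and 8242. The highest of these sums was 1.22 times the lowest, while the library totals differed by 1.45 times. Sd/Sd replicate 4, with the highest total, had neither the highest nor the lowest sum. As a share of the library total the narrow members ranged from 0.197% (Sd/Sd replicate 4) to 0.287% (WT replicate 2, which also had the largest sum). WT replicate 3, with the lowest total, had 0.255%. WT replicate 2 was the highest of the 8 libraries in CPM at 22 of the 36 narrow members, and Sd/Sd replicate 4 the lowest at 18.

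The wider members went the other way. Their 264 regions took 4.63%, 4.504%, 4.46% and 4.87% of the counts in WT and 4.70%, 4.74%, 4.66% and 5.17% in Sd/Sd. Sd/Sd replicate 4 was the highest library at 140 of the 264, and WT replicate 3 the lowest at 83 and WT replicate 2 at 68. The 2 WT libraries of lowest total had the lowest share in wider members, and the library of highest total the highest. Between these ends the share did not follow the total. Sd/Sd replicate 2, with a total of 3090233 near the 3019937 of WT replicate 2, had 4.74%. WT replicate 1, with a total of 3451166, had 4.63%.

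**Figure D2:**
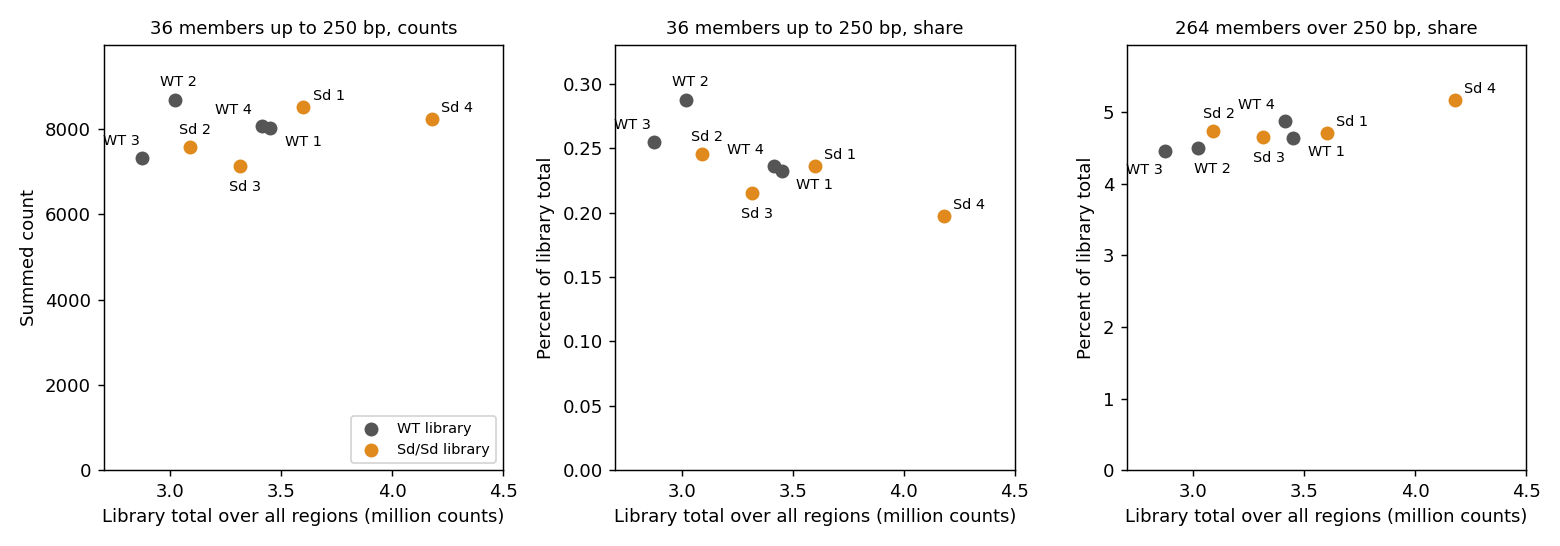
Library total over all counted regions (x axis, counts as scaled on the axis) against the summed count of the 36 narrow members (left), their percent of the library total (middle) and the percent of the 264 wider members (right), 1 point per library. The narrow sum stays between 7136 and 8678 across totals. Its share is lowest in Sd/Sd replicate 4 (0.197%), where the share of the wider members is highest (5.17%).

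Shapes were then sorted by a rule on the counts and peaks alone. A region was called promoter-like with a peak in 8 of 8 libraries, a width of at least the median of 874 bp and a mean fold enrichment of at least the 90th percentile (4.47). It was called repeat-like with a mean fold enrichment below the median of 3.34 or a variation between libraries above the 95th percentile of all regions. A region that met both rules was called repeat-like, which applied to 1 member. Neither name is an annotation. Of the members 163 (54.3%) were promoter-like, 20 (6.67%) repeat-like and 117 (39.0%) neither, beside 7.47%, 51.9% and 40.7% of all regions. Both width and fold enrichment move with the density that chose the members, so these shares are a description. The repeat-like share of all regions is largely set by the rule, which takes every region below the median fold enrichment. Such regions were 13310 of the 13804 repeat-like ones. Of the 36 narrow members 35 were neither, which the rule largely set. Their width kept them from being promoter-like. Their lowest mean fold enrichment was 4.95, so only a high variation between libraries could make one repeat-like.

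The promoter-like members had a median width of 1150 bp, a median fold enrichment of 5.26 and a median density of 143 CPM per kb. All 163 lay above the width of the narrow class by construction. The densest of them was the region at rank 18, also the densest member wider than 800 bp, on chromosome 17 from 95233475 to 95234547. It received 290, 326, 332 and 347 CPM in WT and 296, 373, 328 and 386 in Sd/Sd, with a mean fold enrichment of 5.30. The genotypes overlapped, and Sd/Sd replicate 4 was the highest library. Other members lay on both sides of it, 83506 bp before and 29237 bp after, at ranks 136 and 287. The member at rank 287 was the last counted region of the chromosome, ending at 95264555.

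The region at rank 23, on chromosome 11 from 53953431 to 53954316, held 9.59-fold enrichment in 886 bp. Its levels of 256, 232, 214 and 174 CPM in WT and 204, 265, 192 and 211 in Sd/Sd overlapped throughout.

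Variation between libraries was low in the wide members. edgeR's biological coefficient of variation (BCV), the spread beyond counting error, had a median of 7.84% in the wider members and 9.94% in the narrow ones, beside 12.6% over all regions. The members' counts are higher than those of other regions, and part of this fitted value is shared between regions of like count.

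The 20 repeat-like members were of 2 kinds. Of these, 14 combined a high density with a low fold enrichment, and 6 varied strongly between libraries. The lowest mean fold enrichment of a member was 1.84, on chromosome 1 from 173460298 to 173460762, where only Sd/Sd replicates 1 and 4 had a peak. Its counts were nevertheless high in each library, from 52.7 to 59.98 CPM in WT and from 46.4 to 73.9 in Sd/Sd, in 465 bp. A second such member lay 33684 bp further on, from 173494447 to 173494799 at rank 28, with 74.2 to 89.1 CPM in WT, 73.1 to 81.4 in Sd/Sd and a fold enrichment of 2.11.

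On chromosome 4 the region from 145149527 to 145149798 had a mean fold enrichment of 1.85 and a peak in 3 of 8 libraries. Members at 145174683 to 145176220 (3.18-fold) and 145230142 to 145231186 (3.93-fold) followed within 100 kb. On chromosome 2 a run of 3 members lay between 148503594 and 148507503, separated by 1158 and 891 bp, at 2.51, 2.82 and 3.69-fold. Only 3 of the 300 members lacked a peak in some library, and they were the first member of each of these 2 runs and the chromosome 1 region at rank 283.

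The 3 widest members had an enrichment below the members' median of 5.18, though that on chromosome 4 lay above the median of all regions (3.34). The region on chromosome 5 from 109985761 to 109988235, 2475 bp wide, had the highest level of any counted region, at 557, 513, 540 and 538 CPM in WT and 531, 553, 537 and 648 in Sd/Sd. Sd/Sd replicate 4 stood above the other 7, which overlapped. Its fold enrichment was 2.75 to 2.94 in the 8 libraries. The region on chromosome 14 from 15177782 to 15180407 was 2626 bp wide at 2.95-fold. That on chromosome 4 from 71860099 to 71862962 was the widest, at 2864 bp, with 388 to 439 CPM in all libraries and 3.65-fold.

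On chromosome 11 the region from 3022081 to 3022435 lay just past the 3 Mb at which mm9 chromosomes start after an unsequenced gap. It had 110, 80.8, 77.2 and 87.8 CPM in WT and 90.5, 84.5, 80.5 and 83.7 in Sd/Sd, at a fold enrichment of 2.72. In all, 4 members (1.33%) lay in the first megabase past that gap, beside 0.815% of all regions. The others were rank 10, a narrow member, and the regions starting at 3200706 on chromosome 2 and 3864972 on chromosome 4.

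The 6 members of high variation between libraries, chosen by the shape rule on that variation, are described without a test of it. On chromosome 13 from 105532977 to 105533267 the level was 16.8, 50.3, 41.1 and 67.1 CPM in WT and 46.1, 62.5, 59.1 and 15.3 in Sd/Sd. WT replicate 1 and Sd/Sd replicate 4 were low and the other 6 had 41.1 to 67.1 CPM. On chromosome 3 from 35579307 to 35579960, WT replicate 4 (48.9 CPM) and Sd/Sd replicate 3 (56.1) were low, against 101 to 170 in the rest.

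On chromosome 2 from 176990558 to 176991568, WT replicate 1 had 81.1 CPM and the other 7 libraries 146 to 257. On chromosome 3 from 142979809 to 142980027, a narrow member at rank 12, WT replicate 2 had 44.4 CPM and the others 62.1 to 116. At most narrow members WT replicate 2 was instead the highest. Without WT replicate 2 and Sd/Sd replicate 4 this region passed (log2 fold change -0.47, edgeR adjusted p = 0.0393), and with all libraries it did not (-0.13, edgeR adjusted p = 0.986). Low libraries differed from region to region, and each of these 4 regions had low and high libraries within a genotype.

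On chromosome 2 from 77783546 to 77784645 the level was 149, 148, 191 and 152 CPM in WT and 111, 93.2, 114 and 239 in Sd/Sd. The first 3 Sd/Sd libraries were below every WT library and the fourth above all. Without Sd/Sd replicate 4 the log2 fold change was -0.59 with an edgeR adjusted p = 1.04e-06, and with it -0.17 with an edgeR adjusted p = 0.979. On chromosome 2 from 72850692 to 72851076 the range was 47.0 to 78.2 CPM in WT and 35.9 to 70.5 in Sd/Sd. These groups overlapped.

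**Figure D3:**
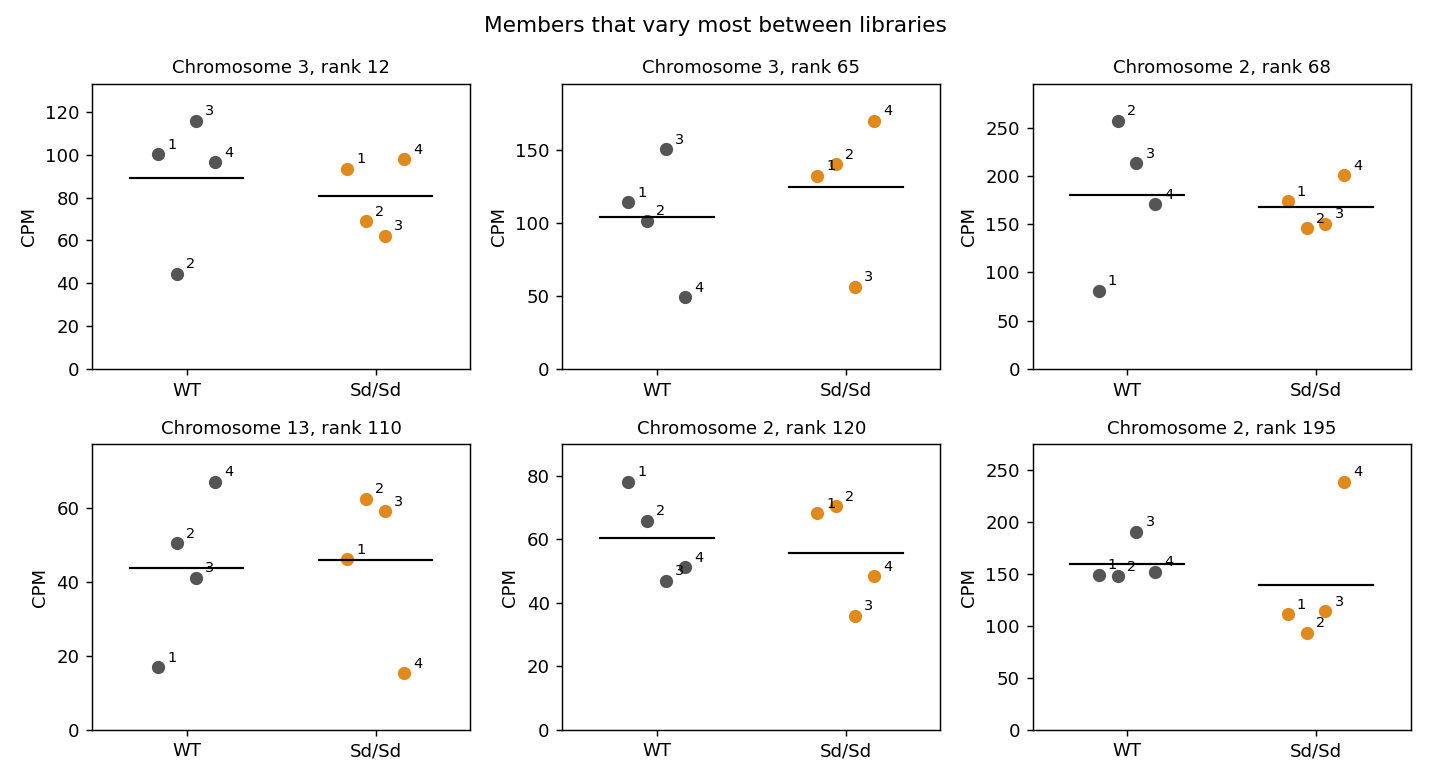
CPM (y axis from 0) of the 6 members that varied most between libraries, by genotype, 1 point per library numbered by replicate, with a line at each group's mean (n = 4). Low libraries differ between regions, for example WT replicate 1 and Sd/Sd replicate 4 on chromosome 13 at 16.8 and 15.3 CPM.

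Members were spread over all 19 autosomes, and unevenly. They were 1.13% of all regions, 1.62% on chromosome 3, 1.5% on chromosome 6 and 1.46% on chromosome 1. On chromosomes 7, 8 and 11 they were 0.543%, 0.496% and 0.534%. Of the 7 members of chromosome 11, 3 were narrow. The median density of all regions on a chromosome lay between 31.1 (chromosome 14) and 33.8 CPM per kb (chromosome 10).

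**Figure D4:**
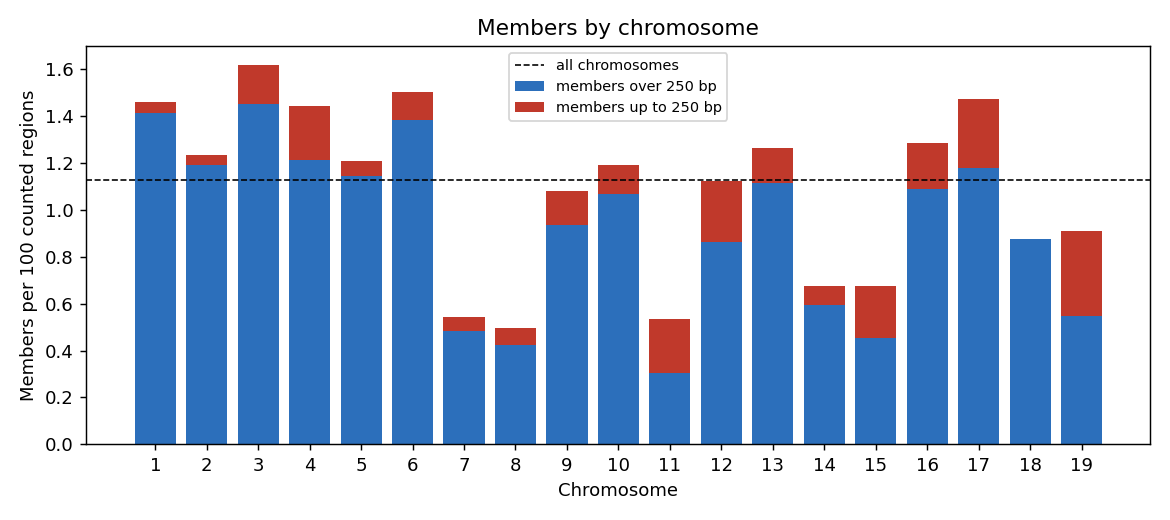
Members per 100 counted regions on each autosome (y axis from 0), with members over 250 bp in blue and narrow members in red, and a dashed line at the share over all chromosomes. Chromosome 3 is the highest at 1.62 and chromosome 8 the lowest at 0.496.

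Distance to other regions differed between kinds of member, as a description with no test. Over all members the gap to the nearest counted region had a median of 24023 bp for members and 24883 bp for all regions, and 7.67% of members against 10.0% of all regions had none within 100 kb. Of the 36 narrow members, 8 (22.2%) had no region within 100 kb, and of the wider members 5.68%. A region within 10 kb was present for 60% of the repeat-like members and 90.9% of those of 501 to 800 bp, beside 24.9% of all regions. Another member lay within 100 kb of 46 of the 300, and the median distance from a member to its nearest member was 1084 kb.

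Loci known for patterning the tailbud held 0 members. As background, the Hox clusters set position along the body axis, Shh is secreted by the notochord, T (brachyury) drives notochord and posterior mesoderm, and Danforth's short tail is an insertion on chromosome 2. In 7 windows around the 4 Hox clusters, Shh with its upstream desert, T and the Danforth insertion, 119 regions were counted. The densest of them, at rank 1313, was on chromosome 2 from 20889836 to 20891590, at 79.6 CPM per kb. The densest region of the HoxC window, at rank 1663, reached 73.2 CPM per kb, and the HoxA window reached 39.6 and the HoxD window 31.3. Median density in these windows was between 26.0 and 35.95 CPM per kb, near that of all regions. With members at 1.13% of all regions, a count of 0 among 119 regions says little about these loci. The windows were set from background knowledge of mm9.

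The 300 densest regions were also chosen from each genotype alone. The list from the 4 WT libraries and the list from the 4 Sd/Sd libraries had 273 regions (91.0% of each) in common. The median density of the WT list was 141 CPM per kb in WT and 147 in Sd/Sd, which did not choose it. That of the Sd/Sd list was 147 in Sd/Sd and 141 in WT. The region of the WT list that ranked lowest in Sd/Sd, at rank 8301, was on chromosome 6 from 131327459 to 131327700. WT replicate 1 alone was high, with 109 CPM, while the remaining 7 libraries had 5.55 to 16.9. It is not a member.

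The genotypes were compared at each member with edgeR's quasi-likelihood test fitted over all 26620 regions. At an adjusted p of 0.05, 0 of 300 members passed, beside 0.0188% of all regions, and DESeq2 also gave 0 (beside 0.0113%). At an unadjusted p under 0.05 there were 36 members (12%, beside 6.06% of all regions), 23 higher in Sd/Sd (beside 2.98%) and 13 lower (beside 3.09%). DESeq2 gave 30 (10.0%, beside 4.42% of all regions). The share was nearer the background without either of 2 libraries. It was 6.33% without WT replicate 2 (5.26% of all regions), 6% without Sd/Sd replicate 4 (4.82%) and 4.33% without both (4.58%), an alternative chosen after the data were seen. Without WT replicate 4 it was 24.3%, beside 7.07% of all regions. For 288 of the 300 members (96%, and 73.8% of all regions) the 95% interval excluded a change of 1.5-fold either way.

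Among the members the sign differed between the width classes. All 13 members lower in Sd/Sd at an unadjusted p under 0.05 were narrow, as were 2 of the 23 higher ones. Of the 36 narrow members 30 had a log2 fold change below 0, with a median of -0.19, and of the 264 wider members 210 were above 0, with a median of 0.07. Over all regions 50.1% were above 0. Regions of at most 250 bp outside the members were 251 above and 228 below 0, with a median of 0.02, so narrow regions in general did not show the sign of the narrow members. Without Sd/Sd replicate 4 the median log2 fold changes were -0.13 in the narrow and 0.02 in the wider members. Without WT replicate 2 they were -0.10 and 0.05. Without both they were -0.05 and 0.01, with 23 of 36 below and 143 of 264 above 0. Library totals were highest in Sd/Sd replicate 4 (4180434) and lowest in WT replicate 3 (2873918), with WT replicate 2 at 3019937. The part of these totals was not tested.

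Groups of 4 did not overlap at 12 members (4.00%, beside 3.20% of all regions). In 8 the Sd/Sd libraries were all higher (beside 1.6%) and in 4 all lower (beside 1.6%), and these 4 were narrow.

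**Figure D5:**
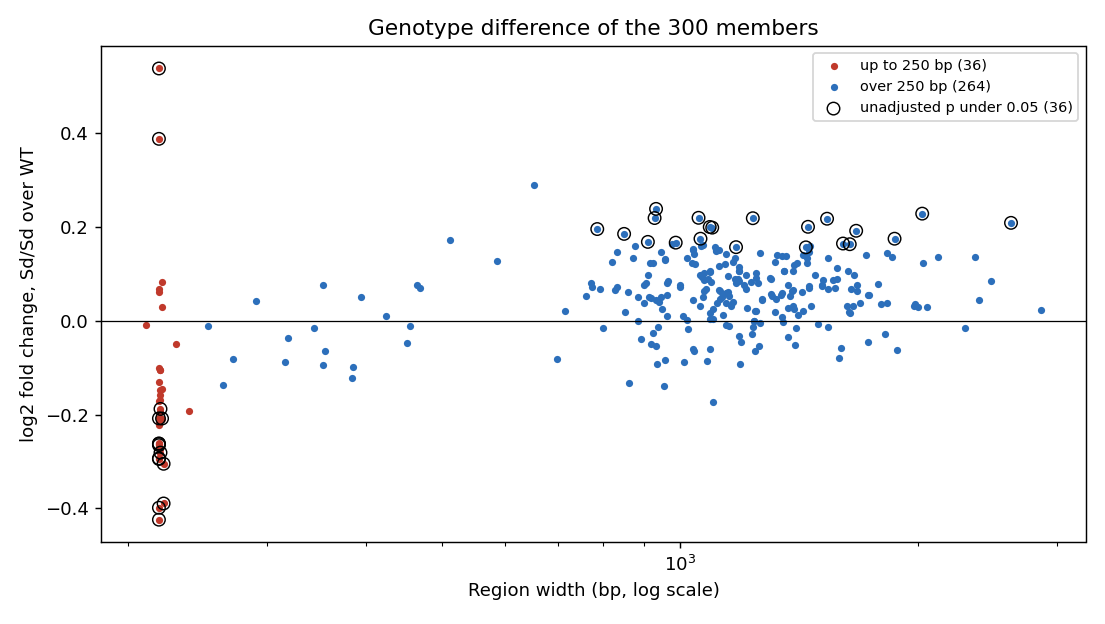
Region width in bp (log scale) against the log2 fold change of Sd/Sd over WT from edgeR for the 300 members, with an unadjusted p under 0.05 circled. The narrow members lie mostly below 0 (30 of 36) and the wider ones mostly above 0 (210 of 264), within about 0.5 log2 units.

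Among narrow members the smallest p was on chromosome 13 from 104675613 to 104675831. It received 69.5, 73.2, 67.2 and 73.8 CPM in WT and 51.7, 65.7, 46.7 and 47.4 in Sd/Sd, so that every Sd/Sd library was below every WT library. The log2 fold change was -0.42 (SE 0.11, 95% interval -0.64 to -0.21), with an edgeR adjusted p = 0.343. The raw counts overlapped, at 193 to 252 in the WT libraries and 155 to 203 in the Sd/Sd ones.

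On chromosome 2 from 49795922 to 49796140 the level was 115, 158, 142 and 131 CPM in WT and 114, 114, 109 and 106 in Sd/Sd. The groups did not overlap, though WT replicate 1 was close to the Sd/Sd libraries (log2 fold change -0.29, SE 0.089, edgeR adjusted p = 0.428). On chromosome 15 from 14671546 to 14671767, 64.7 ± 11.1 CPM in WT stood against 49.3 ± 7.88 in Sd/Sd (SD, n = 4 each, log2 fold change -0.39, edgeR adjusted p = 0.415). The others of the 5 of smallest p in this direction were ranks 6 and 2, at log2 fold changes of -0.26 and -0.27.

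The largest difference in the other direction was also narrow, on chromosome 4 from 90090969 to 90091187. WT replicates had 32.5, 30.1, 59.2 and 50.1 CPM and Sd/Sd replicates 57.5, 72.5, 67.3 and 51.7. WT replicates 1 and 2 were lowest, WT replicate 4 lay just below the lowest Sd/Sd library, and only WT replicate 3 lay within the Sd/Sd range. The log2 fold change was 0.54 (SE 0.15, 95% interval 0.24 to 0.83, edgeR adjusted p = 0.383). Without WT replicate 3 it was 0.72 and passed, with an edgeR adjusted p = 0.00144. Fold enrichment there was 8.30, 7.54, 13.0 and 12.3 in WT and 12.3 to 14.96 in Sd/Sd, low in the same 2 WT libraries.

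A like pattern stood at the narrow member of chromosome 10 from 38067818 to 38068036, with 31.0, 33.1, 66.8 and 48.02 CPM in WT and 54.3 to 61.9 in Sd/Sd. It passed without WT replicate 3 (log2 fold change 0.63, edgeR adjusted p = 0.0296) and not with all libraries (0.39, edgeR adjusted p = 0.751).

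Wider members differed less. The region on chromosome 8 from 4677238 to 4679264 had 331, 324, 366 and 379 CPM in WT and 386, 425, 387 and 434 in Sd/Sd, every Sd/Sd library being above every WT library. Its log2 fold change of 0.23 (SE 0.074, 95% interval 0.084 to 0.37) did not pass (edgeR adjusted p = 0.549). On chromosome 10 from 105277760 to 105278996, 186 to 223 CPM in WT stood against 226 to 267 in Sd/Sd, again without overlap (log2 fold change 0.22, edgeR adjusted p = 0.709).

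The region on chromosome 10 from 10868856 to 10869788 overlapped between the genotypes, with 122 to 148 CPM in WT and 136 to 171 in Sd/Sd (log2 fold change 0.24). The wide region of chromosome 14 from 15177782 had 283 to 315 CPM in WT and 299 to 385 in Sd/Sd (log2 fold change 0.21). Neither passed, at an edgeR adjusted p = 0.709 for both.

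As a whole the members took 4.87%, 4.79%, 4.71% and 5.10% of the WT counts, replicates 1 to 4. Sd/Sd shares were 4.94%, 4.98%, 4.87% and 5.36%, and the members make up 1.30% of the counted length. The means were 4.87% ± 0.169 in WT and 5.04% ± 0.221 in Sd/Sd (SD, n = 4 each). The difference of 0.171 percentage points lay within the libraries' spread (two-sided exact permutation p = 0.286, where 4 against 4 can reach 0.0286). Without Sd/Sd replicate 4 the difference was 0.0631 percentage points.

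Fold enrichment of the members' peaks overlapped between the genotypes when taken over all members. Its median over the members was 5.37, 5.02, 4.98 and 5.40 in WT and 5.20, 5.01, 5.14 and 5.36 in Sd/Sd (5.19 ± 0.226 and 5.18 ± 0.145, SD, n = 4 each, two-sided exact permutation p = 0.8286). This median follows the 264 wider members. Over the narrow members alone it was 17.1 ± 0.347 in WT and 15.8 ± 0.987 in Sd/Sd (SD, n = 4 each, not tested). There Sd/Sd replicate 1, at 17.07, lay within the WT range of 16.8 to 17.6. The remaining Sd/Sd libraries, at 14.9 to 15.9, lay below that range. The median over all counted regions with a peak was 3.54 ± 0.0324 in WT and 3.44 ± 0.0372 in Sd/Sd (SD, n = 4 each, not tested). Over all regions every Sd/Sd library, at 3.39 to 3.47, was below every WT library, at 3.502 to 3.58. The regions with a peak differ between libraries, so these medians are over unlike sets. The libraries had 18682 to 24664 called peaks in WT and 21306 to 30387 in Sd/Sd. Each library had a peak on 297 to 299 of the 300 members.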

How the data were processed

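ATAC-seq libraries of 4 WT and 4 Sd/Sd tailbud samples were grouped by their labels. MACS2 2.1.1.20160309, BWA 0.7.15-r1140 and bedtools 2.26.0 are listed in the submitters' processing notes, with mm9 as build. Neither the counted unit (Tn5 cuts, reads or read pairs), nor duplicate removal, nor the handling of reads that map to several places, nor the Tn5 shift is stated there. As deposited, the authors' files hold whole-number counts per region, without normalization, and broad peaks per library with a score, a fold enrichment (ratio) and −log10 p-values and q-values. The score and −log10 p were not used, and −log10 q only for an alternative limit of 1e-05.

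Members were ranked by mean CPM per kb. Counts of all 26620 regions were fitted in edgeR 4.0.16 (R 4.3.3, TMM scaling, quasi-likelihood F test with robust variance, genotype only, two-sided, Benjamini-Hochberg over all regions, threshold 0.05). The low-count filter removed 0 regions. CPM in the text are scaled to library totals only. A peak was placed on a region at an overlap of 1 bp, and the highest fold enrichment was taken. Per-library values were tested with SciPy 1.17.1. The fit was tested on simulated counts. Alternatives were DESeq2 1.42.0, other scalings, filters and member rules, a block on replicate number, and each library left out in turn.

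Regions named are the 10 densest, 3 at each side of rank 300, the 3 narrowest, widest, highest and lowest in fold enrichment, the 5 of smallest p in each direction, and any in the patterning windows. Ranks 12, 18, 23, 24, 26, 65, 68, 110, 120 and 195 and the neighbouring members were named after their values were seen. The members, lists and windows were chosen with earlier results of these data known.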

Additional observations from a re-analysis of the deposited data

Results flagged for a closer look

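A total of 62 groups of 4 libraries were examined, at the named regions and for the per-library values. In 2 of them a library stood apart from its 3 companions, and about 1 in 20 would do so by chance. The WT group at 102.23 Mb on chromosome 9 was one, where replicate 2 reached 139 CPM and its companions 99.5 to 102.3. The Sd/Sd group at 6.29 Mb on chromosome 4, a region just outside the members, was the other, where replicate 4 reached 130 CPM and its companions 112 to 115.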

How the results depend on the processing

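Leaving out 1 library at a time gave from 0 to 2 members past the adjusted threshold and from 18 to 73 (6% to 24.3%) with an unadjusted p under 0.05, beside 0.00751% to 0.0714% and 4.82% to 7.7% of all regions. With the replicate block these counts were 1 (at 90.09 Mb of chromosome 4, log2 fold change 0.55, edgeR adjusted p = 0.0038) and 65 (21.7%), beside 0.0864% and 6.88% of all regions. The deviations in log CPM of same-numbered libraries from their group means correlated at 0.0037, 0.0082, -0.0011 and 0.092. These correlations were taken over all counted regions and not over the members alone. The members' share of counts was highest in replicate 4 (5.10% in WT, 5.36% in Sd/Sd) and lowest in replicate 3 (4.71% and 4.87%) in both genotypes. The main fit did not pair libraries by number, and whether the numbers mark a shared batch was not tested. With WT replicate 2 and Sd/Sd replicate 4 both left out, the counts were 2 and 13 (4.33%), beside 0.0413% and 4.58%. Of 600 members 59 (9.83%), and of the members wider than 250 bp 21 (7.95%), had an unadjusted p under 0.05, beside 6.06% of all regions. These last settings on 2 libraries and on width were added after the data were seen. The difference in the members' share of counts kept its sign, from 0.0631 to 0.250 percentage points without 1 library, and the block gave an exact sign-flip p = 0.125, the smallest it allows. The difference in median fold enrichment changed sign, to 0.0019 with 600 members, 0.026 with 200 bp added to each width, 0.015 with the median CPM and 0.031 for wider members, and ran from -0.085 to 0.056 without 1 library. It was 0.048 without WT replicate 1, 0.056 with WT replicate 4 left out and 0.043 where Sd/Sd replicate 2 was. The cause was not tested. Adding 200 bp to each width kept 267 of the 300 members and 22 of the 36 narrow ones. The median half-width of the 95% interval about the estimate was 1.19-fold for narrow members, 1.12-fold for wider ones and 1.26-fold over all regions.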
